A study of Mus musculus with 2 samples.

Results

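The insulin-like growth factor (IGF) system of mouse bone was followed through 9 genes: the ligands Igf1 and Igf2, the receptor Igf1r, and the binding proteins Igfbp2, Igfbp3, Igfbp4, Igfbp5, Igfbp6 and Igfbp7. They were chosen by name as the family's ligands, signalling receptor and binding proteins, and make up 9 of the 21905 genes in the tables. All 9 were read in single cells of 2 libraries. The Veh library came from 12-week-old female mice given vehicle, and the Doxo library from 12-week-old female mice treated with the anthracycline doxorubicin (Doxo) at 10 mg/kg, a drug that breaks DNA. Both were taken at 96 h. Cells were released from femurs and tibias with collagenase, and CD45+, CD71+ and Ter119+ blood cells were depleted with beads and by sorting. The sample labels also name CD31, an endothelial marker, among the depleted antigens, while the methods of the study do not, and endothelial cells were present in both libraries. The number of mice behind a library and their strain were not given for this experiment in the sources used here. Each condition is 1 library, so treatment and library cannot be told apart, no test between them was made, and all intervals are 95% intervals that cover counting error only.

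IGF1 and IGF2 are secreted growth factors that act through IGF1R, a receptor tyrosine kinase, and IGF1 is a major anabolic signal for osteoblasts and growth plate cartilage. In extracellular fluid most IGF is held by binding proteins, which can keep the ligand from its receptor, carry it, or release it when they are cut by proteases such as PAPPA. IGFBP4 is known mostly as an inhibitor of IGF action, IGFBP5 binds to bone matrix and is abundant in bone, IGFBP6 prefers IGF2, and IGFBP7 binds IGFs only weakly.

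Each library held 2488 cells. The Veh library had 24859695 unique molecular identifiers (UMIs, counted RNA molecules; median 8693 per cell) and the Doxo library 20792012 (median 7347.5 per cell), and 4 cell barcodes occurred in both. Cells were grouped without the 9 genes or the other genes of the pathway, and the groups were named from marker genes. There were 366 Veh and 425 Doxo cells like CXCL12-abundant reticular (CAR) cells, the adipocyte-lineage stromal cells of the marrow, with all 8 of their markers raised against the other cells. Bone and cartilage fibroblast-like cells (1112 and 1358) had 5 of 8 markers, arteriolar and endosteal fibroblast-like cells (409 and 247) had 7 of 8, osteoblast-like cells (219 and 130) had 7 of 8, chondrocyte-like cells (236 and 205) had 8 of 8 and endothelial-like cells (102 and 69) had 6 of 6. A cluster of 44 Veh and 54 Doxo cells stayed unnamed. Levels are given as UMIs per 1000000 UMIs of the class (CPM). The kit counts 3′ ends, so a molecule counts once whatever its length, but capture can differ between genes.

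The upstream sequences of Igfbp4 and Igfbp5 are shown because these genes were the most abundant members in CAR-like cells and stood in opposite directions between the libraries. They are the 250 bases before the RefSeq start site on GRCm38.p6, read 5′ to 3′ on the strand of the gene, with a TATA-like word in capitals. Igfbp4 lies on the plus strand of chromosome 11, Igfbp5 on the minus strand of chromosome 1.
Igfbp4, chr11:99040994-99041243: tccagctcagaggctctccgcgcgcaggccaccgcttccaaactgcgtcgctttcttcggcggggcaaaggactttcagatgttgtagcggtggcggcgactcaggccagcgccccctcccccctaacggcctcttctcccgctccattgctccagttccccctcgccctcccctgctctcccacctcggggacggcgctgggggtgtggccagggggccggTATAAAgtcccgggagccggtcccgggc
Igfbp5, chr1:72874866-72875115: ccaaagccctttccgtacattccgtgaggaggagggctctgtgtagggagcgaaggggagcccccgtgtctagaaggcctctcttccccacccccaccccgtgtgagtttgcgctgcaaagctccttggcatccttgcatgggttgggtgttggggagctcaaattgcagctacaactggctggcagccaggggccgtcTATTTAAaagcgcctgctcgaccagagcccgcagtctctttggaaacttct
The word TATAAA begins 28 bases before the RefSeq start of Igfbp4, and TATTTAA begins 51 bases before the RefSeq start of Igfbp5. In the GENCODE M21 annotation Igfbp5 starts at base 72874884, inside the printed stretch, so the distance depends on the annotation. The G and C share was 69.2% in Igfbp4 and 58.8% in Igfbp5. Searched on both strands of 32851 RefSeq promoters of the same length, TATAAA was in 12.4% and TATTTAA in 4.18%. Neither sequence held GGGCGG (in 32.7% of promoters) or CCAAT (in 33.8%).

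In CAR-like cells, Igfbp4 was higher and Igfbp5 lower in Doxo, and the gene with more RNA changed places. Igfbp4 took 8844 UMIs in Veh and 26637 in Doxo, a level of 3539 CPM (3465 to 3613) against 7977 CPM (7882 to 8074), which is 2.25-fold higher in Doxo with a log2 ratio of 1.17 (1.14 to 1.21). Igfbp5 took 21022 UMIs in Veh and 13868 in Doxo, 8411 CPM (8298 to 8526) against 4153 CPM (4084 to 4223), 2.03-fold lower with a log2 ratio of -1.02 (-1.05 to -0.99). These intervals do not overlap for either gene. Of 8 members with at least 10 UMIs in the class, these were the 1 higher and the 1 lower by at least 1.5-fold with an interval that left out no change; 8.26% of the 12748 genes tested were higher and 7.13% lower by the same rule. Among the 896 genes with at least 1000 UMIs in CAR-like cells, Igfbp4 had the 12th highest ratio and Igfbp5 the 35th lowest, and by UMIs they ranked 9 and 10.

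The 6 binding proteins together stood at nearly the same level in CAR-like cells, 14477 CPM in Veh and 14520 CPM in Doxo. Igfbp4 made up 24.4% of these UMIs in Veh and 54.9% in Doxo. For Igfbp5 the shares were 58.1% and 28.6%. Igfbp7 gave 15.7% and 14.3%, while Igfbp2, Igfbp3 and Igfbp6 together stayed minor in both libraries.

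**Figure D1:**
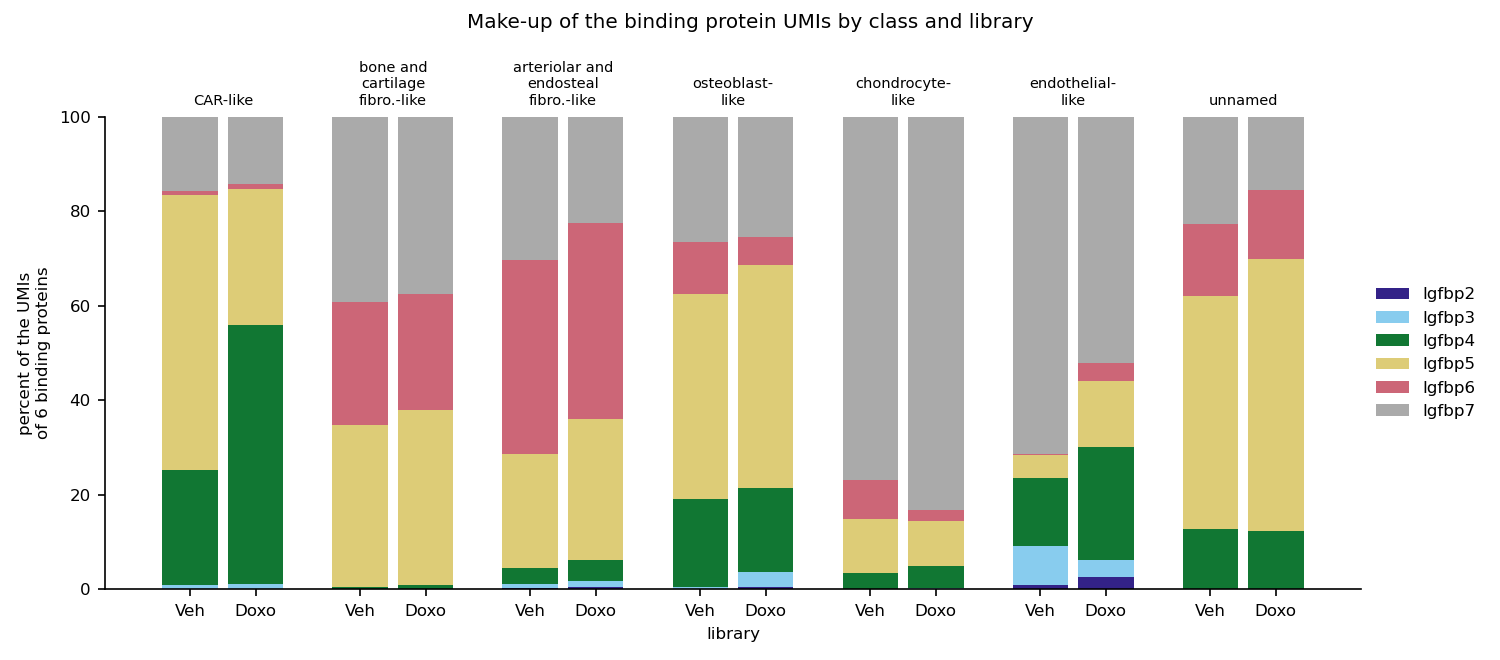
Stacked bars of the share of each binding protein (percent, vertical axis) among the UMIs of the 6 binding proteins, for each class in the Veh and Doxo library (1 library each). In CAR-like cells the Igfbp4 share is 24.4% in Veh and 54.9% in Doxo, while the chondrocyte-like bars are mostly Igfbp7 in both.

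The shift was seen in single CAR-like cells and not only in their sum. More Igfbp4 than Igfbp5 UMIs were found in 69 of 366 Veh cells, 18.9% (exact binomial interval 14.97% to 23.2%), and in 324 of 425 Doxo cells, 76.2% (71.9% to 80.2%). At an equal depth of 1500 UMIs per cell they were 21.9% and 73.4%. The median cell held 2675 CPM of Igfbp4 in Veh and 7338 CPM in Doxo, and 7101 CPM and 3458 CPM of Igfbp5. The 75th percentile of Veh cells for Igfbp4, 4212 CPM, lay just under the 25th percentile of Doxo cells, 4223 CPM. Between single cells of a library, Igfbp4 and Igfbp5 were nearly unrelated, with Pearson r of 0.13 over 366 Veh cells and 0.09 over 425 Doxo cells on a log scale. Cells of 1 library are not replicates, and these points share depth and library.

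**Figure D2:**
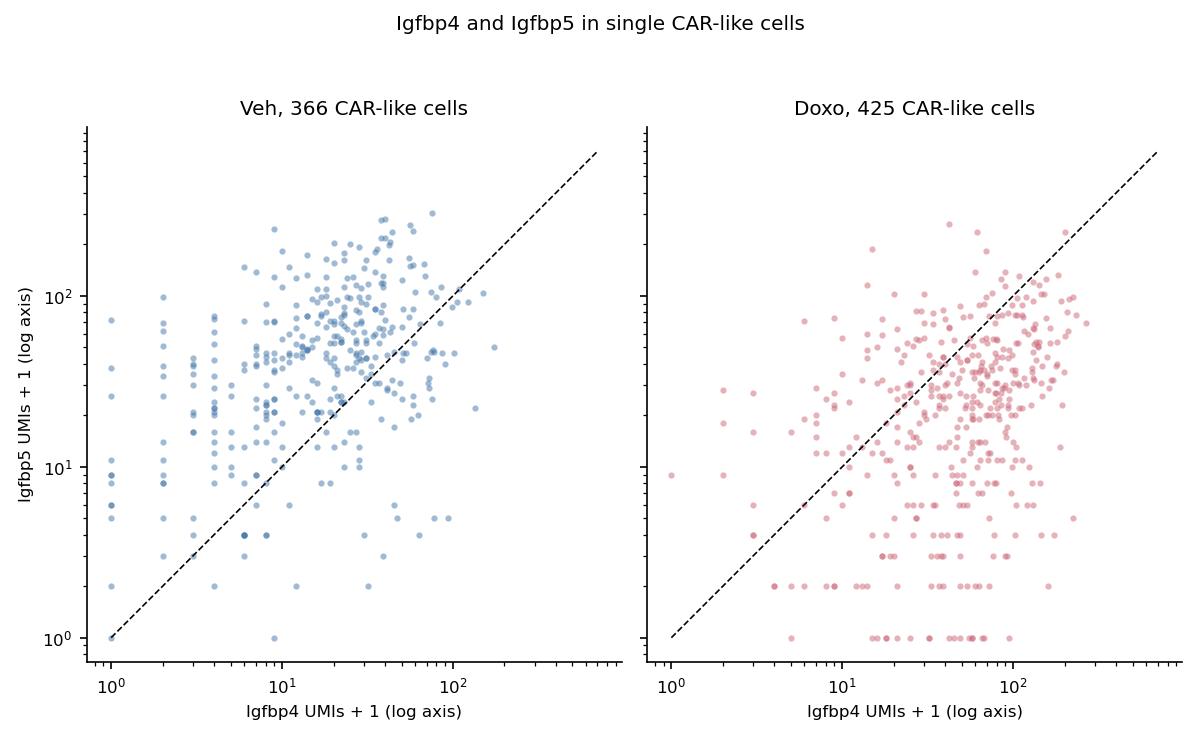
UMIs plus 1 of Igfbp4 (horizontal, log axis) and Igfbp5 (vertical, log axis) in each CAR-like cell, 366 of Veh at left and 425 of Doxo at right, with a dashed line where both are equal. Cells right of the line have more Igfbp4, 18.9% of Veh and 76.2% of Doxo cells.

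CAR-like cells fell into 3 groups when clustered alone, and Igfbp4 was higher and Igfbp5 lower in Doxo in each. The first group (206 Veh and 339 Doxo cells) held 4204 CPM of Igfbp4 in Veh and 8470 CPM in Doxo, with a log2 ratio of 1.01 (0.97 to 1.06). Its Igfbp5 stood at 9643 CPM and 4037 CPM, a log2 ratio of -1.26 (-1.30 to -1.22). The second group (149 and 69 cells) had high Ccl2, a monocyte chemokine, at 6164 CPM in Veh and 623 CPM in Doxo, and its log2 ratios were 1.30 (1.24 to 1.37) for Igfbp4 and -0.71 (-0.78 to -0.65) for Igfbp5. The third group had only 11 and 17 cells, median depths of 14017 and 18104 UMIs, and 20416 CPM (Veh) and 5669 CPM (Doxo) of the fibroblast gene Prg4 beside 11933 CPM and 13504 CPM of Cxcl12. It gave 1.25 (1.08 to 1.43) for Igfbp4 and -0.45 (-0.57 to -0.33) for Igfbp5. More Igfbp4 than Igfbp5 was found in 20.4%, 17.4% and 9.09% of the Veh cells of the groups and in 77.9%, 72.5% and 58.8% of the Doxo cells.

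The other members differed less between the libraries in CAR-like cells. Igf1 stood at 279 CPM (259 to 300) in Veh and 380 CPM (360 to 402) in Doxo, a log2 ratio of 0.45 (0.31 to 0.58), under 1.5-fold. A UMI of Igf1 was found in 70.2% of Veh and 80.9% of Doxo CAR-like cells, against 4.24% and 2.93% of the chondrocyte-like cells, whose median depths were 19702 and 14753 UMIs and those of CAR-like cells 6228.5 and 7324. At an equal depth of 1500 UMIs per cell they were 32.0% and 38.6% against 0.424% and 0.488%. Igf2 was scarce, with 34 and 56 UMIs, and its ratio of 0.29 had an interval that held 0. Igf1r, the receptor, gave 64.8 CPM and 68.0 CPM, so its levels differed by less than the counting error. Igfbp3, which carries IGFs in serum complexes, gave 122 CPM and 158 CPM, a log2 ratio of 0.38. Igfbp7 was at 2276 CPM and 2071 CPM, and Igfbp2 had 6 and 3 UMIs, too few to compare.

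Igfbp6 in CAR-like cells came mostly from the smallest group. That group held 265 of 315 Igfbp6 UMIs in Veh and 506 of 532 in Doxo. In the whole class, 3 cells held 198 of the Veh UMIs and 3 cells held 289 of the Doxo UMIs. Over the whole class the log2 ratio was 0.34, and without the smallest group it was -1.31, the opposite direction. The second value rested on few UMIs, 27 in Veh and 23 in Doxo in the first group and 23 and 3 in the second.

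Marker lists of other cells went both ways in the CAR-like class. The summed level of the 8 osteoblast markers was 8118 CPM in Veh and 3327 CPM in Doxo, that of the 8 bone and cartilage fibroblast markers 2796 CPM and 1723 CPM, and that of 5 immune markers 489 CPM and 51.2 CPM. The 5 erythroid markers summed to 393 CPM in Veh and 10.2 CPM in Doxo. The 8 chondrocyte markers, at 556 CPM and 736 CPM, and the 6 pericyte or smooth muscle markers, at 150 CPM and 332 CPM, were higher in Doxo. The 6 endothelial markers summed to 39.2 CPM and 16.2 CPM, and Ptprc, which encodes CD45, was found in 19 Veh and 14 Doxo cells of all classes. Their part in the Igfbp4 and Igfbp5 values was not tested. The CAR markers themselves summed to 38988 CPM and 47077 CPM, but single markers went both ways. In the 3 groups of CAR-like cells Lepr was lower in Doxo, with log2 ratios of -0.61, -0.58 and -0.59. Cxcl12 (0.04, 0.19 and 0.18) and Adipoq (0.28, 0.15 and 0.42) were higher. When cells were instead picked by 2 or more detected genes among Cxcl12, Adipoq, Lepr and Ebf3, which gave 788 Veh and 768 Doxo cells of which only 365 and 424 were in the CAR-like class, the log2 ratio was 1.67 for Igfbp4 and -0.45 for Igfbp5, the second no longer past 1.5-fold.

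Across classes, each member had its own place. The 2 ligands were highest in CAR-like and arteriolar and endosteal fibroblast-like cells. Igf1 was at 285 CPM (269 to 302) in the arteriolar and endosteal class and 279 CPM (259 to 300) in the CAR-like class in Veh, which overlap, while in Doxo the CAR-like class was above it, 380 CPM (360 to 402) against 184 CPM (166 to 204). Endothelial-like cells (28.0 CPM) and bone and cartilage fibroblast-like cells (26.4 CPM) followed in Veh without a difference beyond their intervals, and chondrocyte-like cells held 2.76 CPM. The endothelial-like level rested on 19 Igf1 UMIs, of which 13 lay in 1 cell. Igf2 was highest in the arteriolar and endosteal class, 86.8 CPM (78.0 to 96.3) in Veh and 44.5 CPM (35.9 to 54.7) in Doxo. It was not found in the 130 Doxo osteoblast-like cells, where 0 UMIs allow up to 7.02 CPM. In the GENCODE M21 annotation Gm49394 overlaps Igf2 on the same strand, and Igf1 and Igfbp7 overlap antisense genes, so reads of these 3 members may be shared; whether counting used the strand is not given in the sources used here.

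Igf1r was found in every class, with a smaller ratio of its highest to its lowest class than the other 8 members. In Veh it ran from 26.4 CPM (17.1 to 38.9) in osteoblast-like cells to 114 CPM (104 to 124) in arteriolar and endosteal fibroblast-like cells, with bone and cartilage fibroblast-like cells at 111 CPM (105 to 117). The intervals of these last classes overlap, and 81 of the 465 UMIs of the arteriolar and endosteal class lay in 1 cell. In Doxo 5 of the 7 groups of cells were between 104 CPM and 131 CPM, while CAR-like cells, at 68.0 CPM (59.4 to 77.4), and osteoblast-like cells, at 32.3 CPM (18.8 to 51.8), were below them.

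The binding proteins divided the classes between them. Igfbp4 and Igfbp5 were highest in CAR-like cells in both libraries. For Igfbp5, Veh bone and cartilage fibroblast-like cells followed at 3059 CPM (3027 to 3091), and the unnamed cluster (2408 CPM, 2287 to 2533) and the arteriolar and endosteal class (2403 CPM, 2356 to 2451) could not be told apart. Igfbp6 was a fibroblast gene here, at 4092 CPM (4031 to 4155) in the arteriolar and endosteal class and 2339 CPM (2311 to 2368) in the bone and cartilage class of Veh, against 126 CPM in CAR-like cells and 13.3 CPM in endothelial-like cells. Igfbp7 was high in most classes. Veh endothelial-like cells (3608 CPM, 3466 to 3753) and bone and cartilage fibroblast-like cells (3505 CPM, 3471 to 3540) had overlapping intervals, and osteoblast-like cells were lowest at 142 CPM. Igfbp2 and Igfbp3 were highest in endothelial-like cells, at 47.2 CPM (32.3 to 66.6) and 417 CPM (370 to 469) in Veh, with 119 of the 283 Veh UMIs of Igfbp3 in 3 cells. In Doxo the endothelial-like level of Igfbp3, 166 CPM (126 to 214), could not be told apart from the CAR-like level of 158 CPM. No UMI of Igfbp2 was found in chondrocyte-like cells of either library. Igfbp2 and Igfbp5 are neighbours on chromosome 1, on opposite strands with 5457 bases between their 3′ ends, and Igfbp2 had 9 UMIs in all CAR-like cells.

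**Figure D3:**
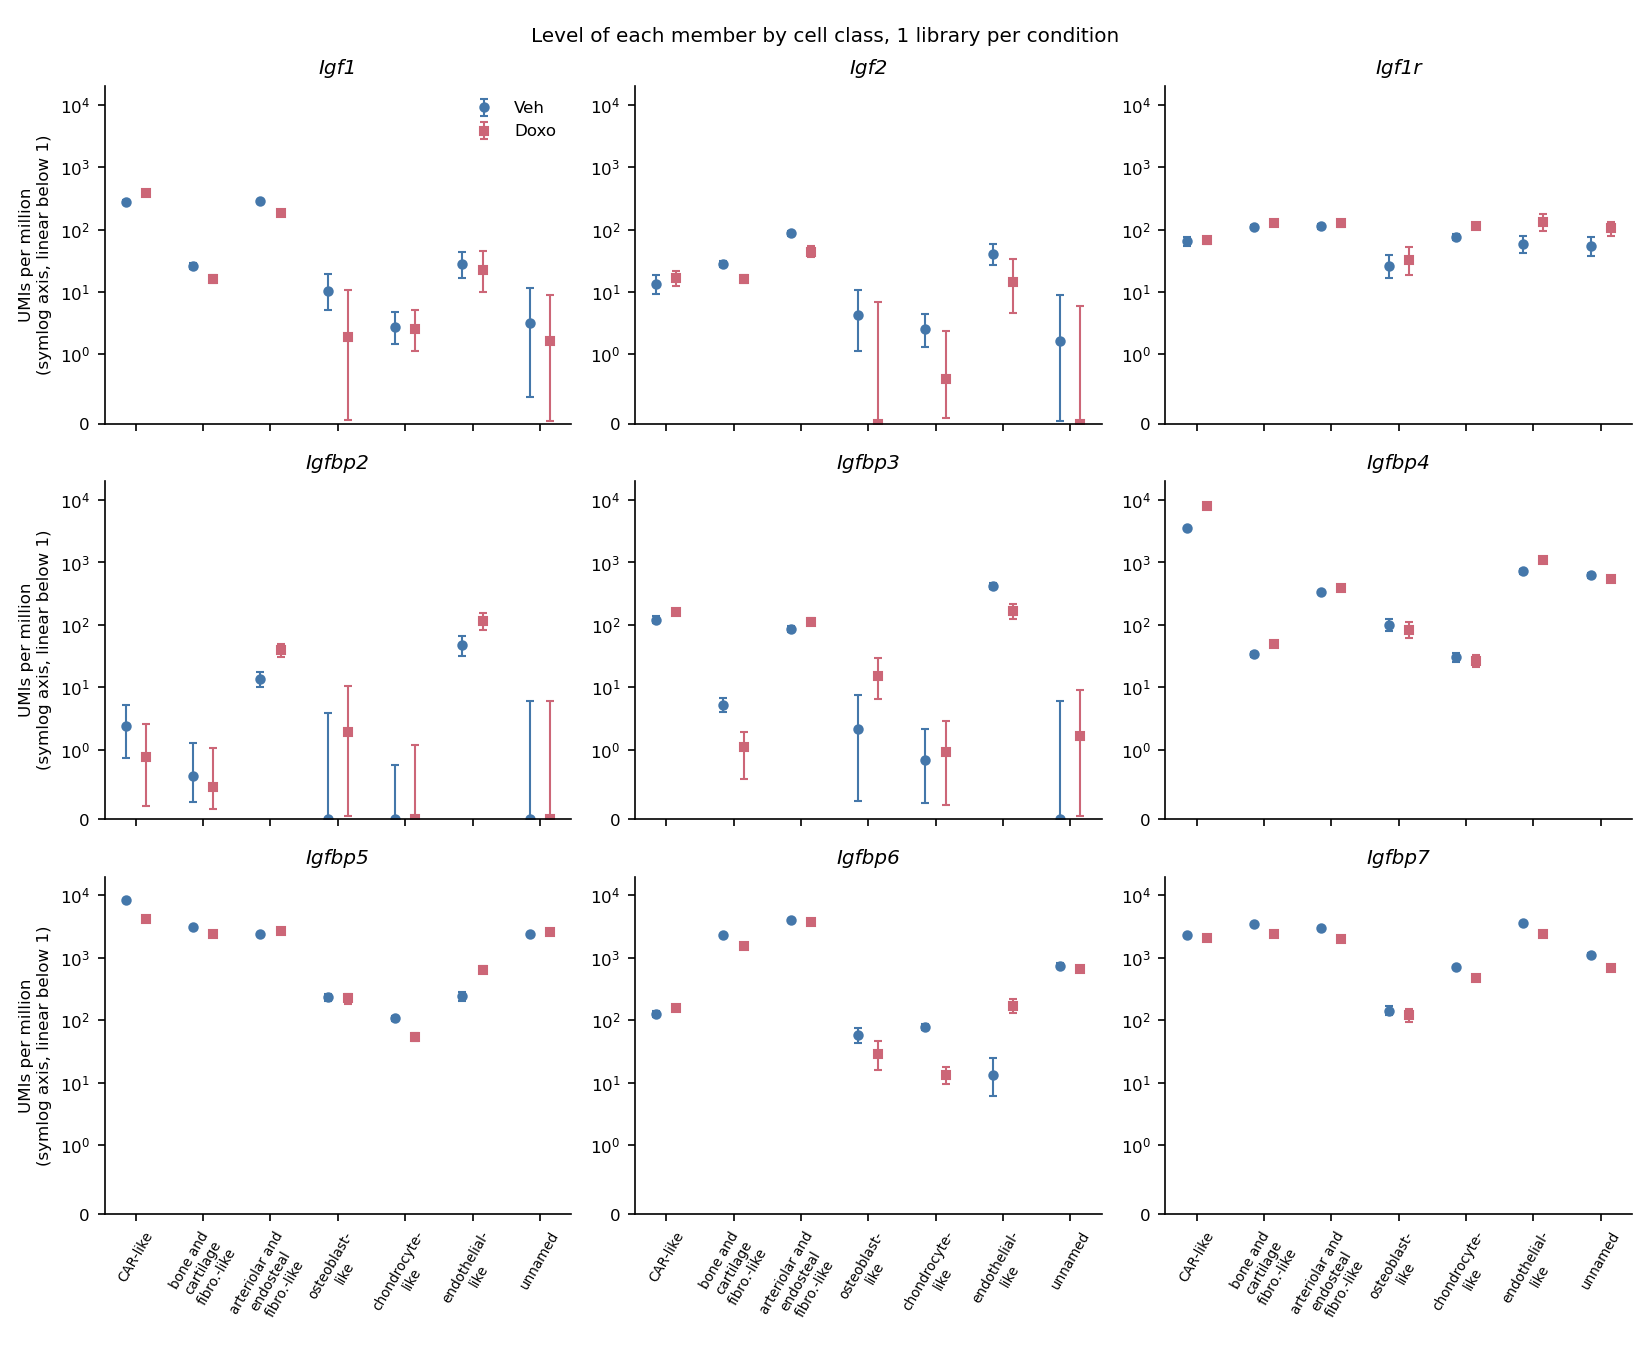
CPM (vertical, symlog axis that is linear below 1) of each member in each class, Veh as circles and Doxo as squares (1 library each), with exact 95% Poisson intervals that cover counting error only. Igfbp4 and Igfbp5 are highest in CAR-like cells in both libraries, and Igf1r stays within 26.4 CPM and 131 CPM in all classes.

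The genes whose levels followed 8 of the members most closely over the 14 combinations of class and library, among 8067 genes with at least 500 UMIs, were Ngly1 for Igf2 (Pearson r 0.91 of log2(CPM + 1)), Tpst1 for Igf1r (0.90), Ctla2a for Igfbp2 (0.97), Jag1 for Igfbp3 (0.94), Ndufs4 for Igfbp4 (0.97), Selenbp1 for Igfbp5 (0.93), S100a4 for Igfbp6 (0.95) and Grk5 for Igfbp7 (0.96). The 14 points share libraries and depth, and the values are a description of these libraries.

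In bone and cartilage fibroblast-like cells, both ligands were lower in Doxo. Igf1 stood at 26.4 CPM (23.5 to 29.6) in Veh and 16.3 CPM (14.03 to 18.9) in Doxo, a log2 ratio of -0.69 (-0.97 to -0.42). Igf2 stood at 27.7 CPM (24.8 to 31.0) and 16.1 CPM (13.8 to 18.6), a log2 ratio of -0.79 (-1.06 to -0.52). Igfbp3 was near its floor, with 60 UMIs in Veh and 12 in Doxo (-2.21, -3.29 to -1.35). Of the Veh UMIs 36 lay in 3 cells, and with 20 principal components the ratio was -1.21. These were 3 of 9 members tested, all lower, where 6.93% of 14445 genes were lower and 2.54% higher. With clusters found at a resolution of 0.2, 1 member was past the limit. Igfbp6 (2339 CPM and 1560 CPM, -0.58) and Igfbp7 (3505 CPM and 2389 CPM, -0.55) lay just within 1.5-fold. Igfbp5 gave 3059 CPM and 2371 CPM (-0.37). The 6 binding proteins summed to 8943 CPM in Veh and 6371 CPM in Doxo.

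Igfbp4 was rare in these fibroblast-like cells, 33.8 CPM in Veh and 48.6 CPM in Doxo (0.52). Its UMIs stood to those of Cxcl12, a gene of CAR cells, as 0.218 in Veh and 0.370 in Doxo, close to the 0.161 and 0.323 within CAR-like cells themselves, and in chondrocyte-like cells the ratios were 0.219 and 0.353. For Igfbp5 the ratio was 19.7 in Veh fibroblast-like cells against 0.383 in CAR-like cells. The part of free RNA from CAR-like cells in the low Igfbp4 values was not tested.

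At a resolution of 0.2 this fibroblast class split into groups with different IGF genes. The group led by Msmp, Rbp4 and Wif1 had 1 of 8 fibroblast markers raised there and did not meet the rule for a name, so the count at that resolution leaves its cells out. A group led by Npy and Angptl7 (722 Veh and 816 Doxo cells) held most Igfbp5 (3839 CPM and 3115 CPM) and Igfbp6 (3165 CPM and 2315 CPM). The unnamed group led by Msmp, Rbp4 and Wif1 (316 and 486 cells), with the most Prg4, a lubricant of joint surfaces, held more Igf2, at 57.6 CPM in Veh and 23.9 CPM in Doxo (-1.27, -1.64 to -0.91). A small group led by Shisal2b and Chodl (58 and 41 cells), with the tendon gene Tnmd at 1760 CPM and 946 CPM, held 346 CPM and 366 CPM of Igf1 and only 236 CPM and 96.8 CPM of Igfbp5. The Igf1 ratio of that group, 0.08, had an interval from -0.38 to 0.52 on 113 and 68 UMIs.

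In arteriolar and endosteal fibroblast-like cells the ligands were again lower in Doxo. Igf1 was 285 CPM in Veh and 184 CPM in Doxo (-0.63, -0.80 to -0.46), and Igf2 86.8 CPM and 44.5 CPM (-0.96, -1.31 to -0.63). Igfbp7 was 3006 CPM (2953 to 3060) and 1986 CPM (1925 to 2048), a log2 ratio of -0.60 (-0.65 to -0.55). Igfbp2 was higher, 13.4 CPM and 39.1 CPM (1.54, 1.03 to 2.06), but 50 and 18 of its 80 Doxo UMIs lay in 2 cells, and without the 3 cells with most Igfbp2 in each library the ratio was -0.28. Of 9 members, 1 was higher and 3 were lower by the rule, where 3.74% of 12472 genes were higher and 5.72% lower. Igfbp6, the main member of the class, was 4092 CPM and 3677 CPM (-0.15), and Igfbp4, Igfbp5, Igfbp3 and Igf1r were within 1.5-fold.

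Osteoblast-like cells held little of any member, with 536 CPM of all 6 binding proteins in Veh and 472 CPM in Doxo. Their median depth, 3161 and 2990.5 UMIs, was the lowest of the classes. Igfbp6 was lower in Doxo on 55 and 15 UMIs (-0.99, -1.95 to -0.18), and Igfbp3 higher on 2 and 8 UMIs, 7 of the 8 in 1 cell (2.62, 0.53 to 6.12). These were 2 of 7 members tested, 1 in each direction, where 4.11% of 8656 genes were higher and 7.45% lower, and the count ran from 0 to 4 over the alternatives tried. Of the 55 Veh UMIs of Igfbp6, 30 lay in 3 cells, 22 of them in 1 cell, and its ratio ran from -3.23 to -0.27 over the alternatives. Igfbp5 rested on few cells as well, with 139 of 221 UMIs in 1 Veh cell and 71 of 117 in 1 Doxo cell.

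In chondrocyte-like cells 3 binding proteins were lower in Doxo. Igfbp7, the main member, was 721 CPM (697 to 746) in Veh and 475 CPM (451 to 500) in Doxo, a log2 ratio of -0.60 (-0.69 to -0.51). Igfbp6 was 78.6 CPM (70.8 to 87.1) and 13.3 CPM (9.51 to 18.0), a ratio of -2.55 (-3.07 to -2.10), and Igfbp5 107 CPM (97.8 to 117) and 54.3 CPM (46.4 to 63.2), a ratio of -0.97 (-1.24 to -0.72). Both of these rested on few cells. For Igfbp6, 3 cells held 219 of 370 UMIs in Veh, 137 of them in 1 cell, and 22 of 41 in Doxo. For Igfbp5, 3 cells held 315 of 503 UMIs in Veh and 126 of 168 in Doxo. CAR and fibroblast markers took 0.818% to 1.53% of the UMIs of these Veh cells, where the median chondrocyte-like cell of Veh had 0.378%. In Doxo the range was 0.131% to 3.31% and the median 0.283%, and their part in the values was not tested. Of 7 members tested none was higher by the rule, where 9.13% of 12284 genes were higher and 8.13% lower. Igf1r was 76.5 CPM (68.8 to 84.8) and 112 CPM (101 to 125), a ratio of 0.55 (0.34 to 0.77), just within 1.5-fold. The Igfbp5 value also depended on which cells were counted as chondrocyte-like, since it was 0.08 when the 12 cells called by Scrublet were left out and the cells clustered again.

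Endothelial-like cells had the most members past 1.5-fold, 5 higher and 3 lower of 9, where 5.57% of 8678 genes were higher and 3.76% lower. Igfbp3 was 417 CPM (370 to 469) in Veh and 166 CPM (126 to 214) in Doxo (-1.32, -1.77 to -0.92). Igf2 had 28 and 5 UMIs (-1.42, -3.26 to -0.14), of which 22 in Veh lay in 3 cells and all 5 in Doxo in 2 cells. Igfbp7 was 3608 CPM and 2389 CPM (-0.59, -0.71 to -0.48). Igf1r was 59.0 CPM and 131 CPM (1.15, 0.51 to 1.80), with 12 of its 46 Doxo UMIs in 1 cell, and with every cell thinned to 1500 UMIs the ratio was 0.057. Igfbp2 was 47.2 CPM and 114 CPM (1.27, 0.57 to 1.99), and Igfbp4 729 CPM and 1094 CPM (0.59, 0.39 to 0.78). Igfbp2 rested on 32 Veh and 40 Doxo UMIs, of which 17 and 20 lay in 3 cells of each library. Its ratio stayed at 1.23 to 1.43 under all 15 alternatives tried, among them changes of the minimum count that could not move it.

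The endothelial-like values of Igfbp5 and Igfbp6 came mostly from a few cells as well. Igfbp5 was 242 CPM in Veh and 649 CPM in Doxo (1.42, 1.13 to 1.72), with 116 and 77 of the 227 Doxo UMIs in 2 cells and 93 and 33 of the 164 Veh UMIs in 2 cells. Igfbp6 was 13.3 CPM and 169 CPM (3.60, 2.65 to 4.86), with 34 and 14 of 59 Doxo UMIs in 2 cells. In the class the CAR markers summed to 847 CPM in Veh and 2577 CPM in Doxo, and the bone and cartilage fibroblast markers to 400 CPM and 1791 CPM, while the 6 endothelial markers summed to 6267 CPM and 5806 CPM. CAR and fibroblast markers took over 1% of the UMIs of 3 Veh and 5 Doxo cells. Without these cells the Igfbp5 ratio was -1.15, the opposite direction.

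In the unnamed cluster, Igfbp5 was 2408 CPM and 2579 CPM and Igfbp6 745 CPM and 657 CPM. Igf1r was higher in Doxo, 54.9 CPM and 104 CPM (0.92, 0.30 to 1.57), and Igfbp7 lower, 1105 CPM and 696 CPM (-0.67, -0.84 to -0.49). These were 2 of 5 members tested, where 4.85% of 8638 genes were higher and 3.82% lower.

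Read across classes, the log2 ratio of Igfbp7 was below 0 in all 7 groups of cells, from -0.67 to -0.14, and past 1.5-fold in 4 of them. In osteoblast-like cells its interval, -0.70 to 0.19, held 0. The calls lay near the limit, and stayed past 1.5-fold in 10 of 14 alternatives in the arteriolar and endosteal class, 7 of 14 in chondrocyte-like cells and 10 of 15 in endothelial-like cells. The median ratio of all genes tested lay between -0.10 and 0.07 in the classes. How many of all genes were below 0 in all 7 groups, or called lower in 4, was not counted. The groups come from the same 2 libraries, so their directions are not independent. Igf1 was lower in both fibroblast classes and higher in CAR-like cells, where it did not reach 1.5-fold. Igfbp4 was past 1.5-fold in CAR-like and endothelial-like cells only, and the second value, 0.59, lay at the limit.

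**Figure D4:**
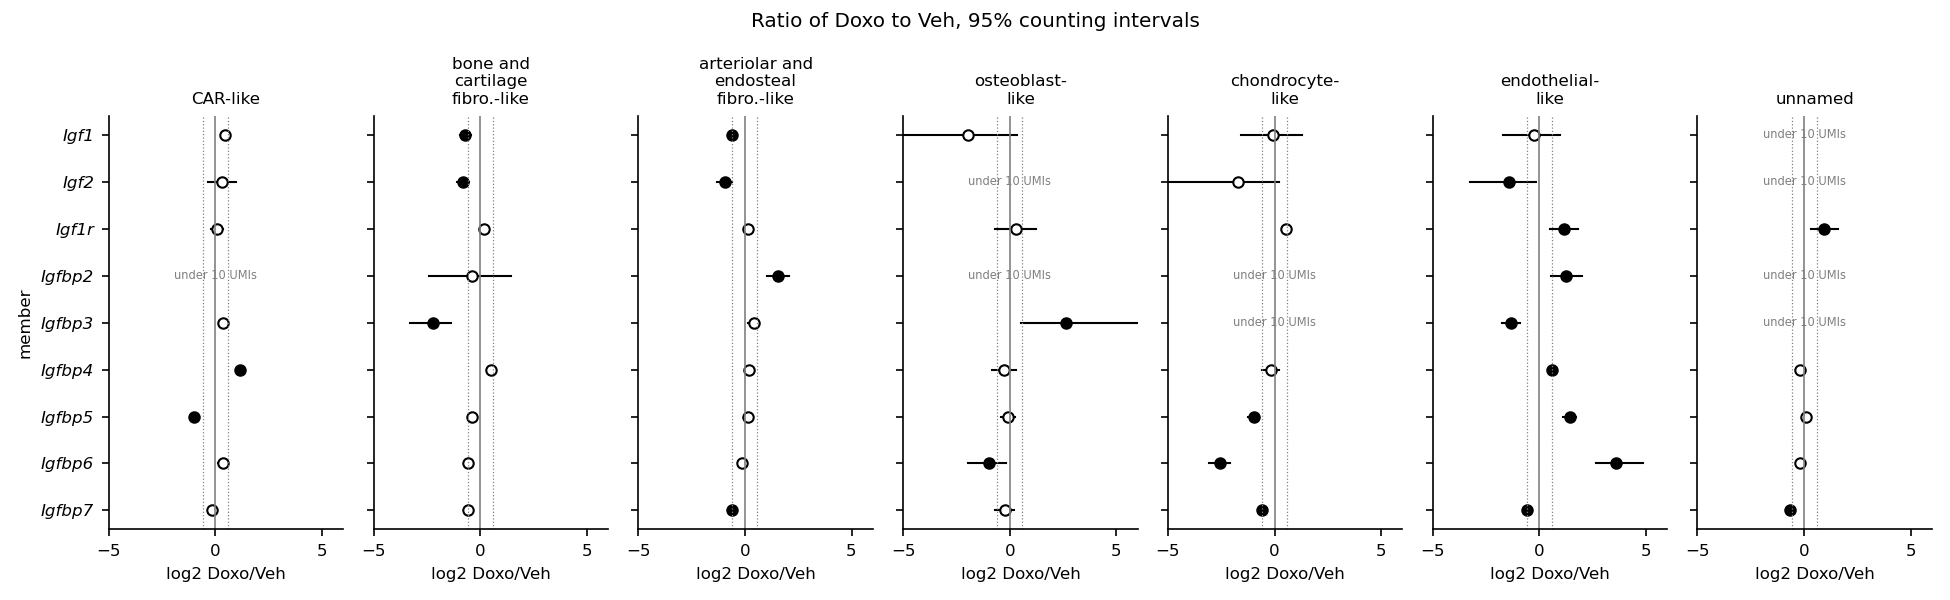
Log2 ratio of Doxo to Veh (horizontal) of each member (rows) in each class (panels), with exact 95% intervals that cover counting error only and are drawn to the panel's edge where they run beyond it. Filled points are past 1.5-fold (dotted lines) with an interval that leaves out 0, and in CAR-like cells these are Igfbp4 at 1.17 and Igfbp5 at -1.02.

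The other genes of the IGF pathway were taken from a list of receptors, binding partners, proteases and relay proteins, of which 30 were in the tables. In CAR-like cells 27 could be compared, and 3 were higher and 3 lower, where 8.26% of all genes tested were higher and 7.13% lower. Adamts1, a matrix protease, was 719 CPM in Veh and 206 CPM in Doxo (-1.80, -1.93 to -1.67). Foxo3, a transcription factor held in check by IGF signalling, was 50.02 CPM and 25.8 CPM (-0.95), and Igf2bp2, which binds Igf2 RNA, 36.0 CPM and 19.2 CPM (-0.91). On the receptor side, the adaptor Irs1 was 77.2 CPM and 124 CPM (0.68), the insulin receptor Insr 22.8 CPM and 35.6 CPM (0.64), and the growth hormone receptor Ghr 377 CPM and 570 CPM (0.60). Pappa, the protease of IGFBP4, was abundant in the class at 657 CPM and 470 CPM (-0.48), within 1.5-fold.

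In chondrocyte-like cells 7 of 25 pathway genes were higher and 5 lower, beside 9.13% and 8.13% of all genes. Irs1 was 24.0 CPM and 103 CPM (2.10, 1.79 to 2.43) and Irs2, the related adaptor, 69.7 CPM and 170 CPM (1.29, 1.09 to 1.49). Pik3r1, a regulatory subunit of PI3 kinase, was 301 CPM and 141 CPM (-1.09, -1.25 to -0.93). Stc2, an inhibitor of PAPPA, was 92.0 CPM and 161 CPM (0.81), Insr 7.23 CPM and 12.9 CPM (0.84), and Igf2bp3 8.08 CPM and 13.9 CPM (0.78). The protease Htra1 was 248 CPM and 151 CPM (-0.72), and Foxo1 120 CPM and 75.7 CPM (-0.67).

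In osteoblast-like cells 1 of 21 pathway genes was higher and 7 lower, beside 4.11% and 7.45% of all genes. Adamts1 was 181 CPM and 40.0 CPM (-2.15), Htra1 216 CPM and 74.2 CPM (-1.53), and Irs2 46.4 CPM and 20.9 CPM (-1.10). Socs2, a feedback inhibitor of growth hormone signalling, was 117 CPM and 59.0 CPM (-0.97), and Pik3r1 103 CPM and 55.2 CPM (-0.89). The metalloprotease Adam12 was the higher gene, 36.9 CPM and 76.1 CPM (1.04). Irs2 was higher in chondrocyte-like and lower in osteoblast-like cells, a difference between classes that was not tested.

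**Figure D5:**
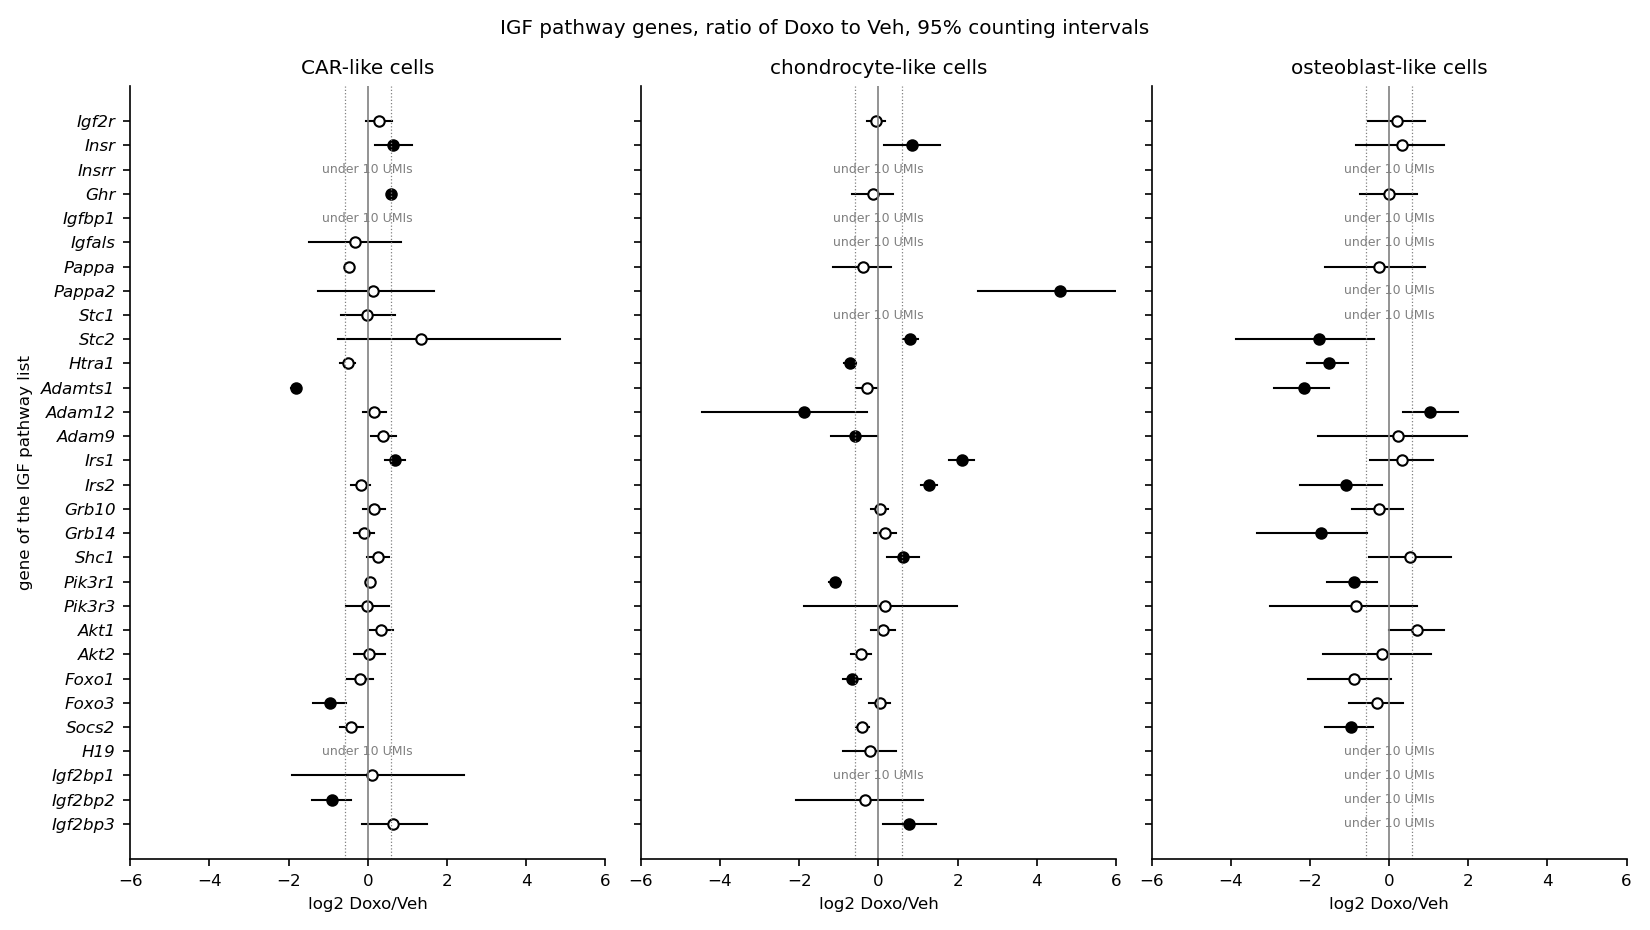
Log2 ratio of Doxo to Veh (horizontal) of the 30 listed IGF pathway genes in CAR-like, chondrocyte-like and osteoblast-like cells, with exact 95% counting intervals and filled points as past 1.5-fold with an interval that leaves out 0. Adamts1 is at -1.80 in CAR-like and -2.15 in osteoblast-like cells, and Irs1 at 2.10 in chondrocyte-like cells.

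In the remaining classes few pathway genes passed the rule. Of 25 compared in bone and cartilage fibroblast-like cells none was higher and 3 were lower, beside 2.54% and 6.93% of all genes. The 3 were Grb14, an adaptor that binds the insulin receptor, 11.2 CPM and 6.003 CPM (-0.90), Pappa2, a protease of IGFBP5, 5.48 CPM and 3.51 CPM (-0.64), and Socs2, 43.8 CPM and 28.9 CPM (-0.60). In the arteriolar and endosteal class 1 of 25 was higher and 2 lower (3.74% and 5.72% of all genes), among them Pappa with 65 UMIs in Veh and 9 in Doxo (-1.78, -3.04 to -0.84). In endothelial-like cells 1 of 17 was higher and none lower (5.57% and 3.76% of all genes). In the unnamed cluster 1 of 16 was higher and 2 lower (4.85% and 3.82% of all genes), the lower ones being Adamts1, 101.7 CPM and 53.8 CPM (-0.91), and the IGF2 scavenger receptor Igf2r, 75.9 CPM and 44.0 CPM (-0.77).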

How the data were processed

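Cells of mouse bone were profiled with a 3′ droplet kit in 1 Veh and 1 Doxo library. The authors aligned reads to GRCm38 (mm10) with Cell Ranger and filtered cells in Seurat, and the submitters' notes also name Partek. Versions are not given in the sources used here. What was deposited is on a log2 scale, 1 value for each gene in each cell, and the numbers themselves show that every cell was scaled and logged in 2 successive rounds. They were inverted to UMIs, of which 99.94% of the values up to 50 came out whole in each library. Values that were not whole were found for 21 symbols, none of them a member. Counts of UMIs ran from 1506 to 64938 per cell.

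Cells were clustered in Seurat 5.3.0 (R 4.3.3) with 35 principal components of 2000 variable genes, members and pathway genes left out, at a resolution of 0.1, and CAR-like cells alone at 0.15. Clusters were named from marker lists. Scrublet called 12 cells (0.241%), which is too few for a working call, and doublets were kept.

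UMIs were summed per class and library. CPM has exact Poisson intervals, shares have exact binomial (Clopper-Pearson) intervals, and log2 ratios have exact conditional binomial intervals, with 0.5 UMI added for the ratio itself. UMIs were taken as independent molecules. A gene was tested with at least 10 UMIs, and called at 1.5-fold with an interval leaving out 0. In simulated data on 12748 genes of CAR-like cells, 96.1% of intervals held the true ratio. The simulated sums were drawn from the same counting model that the intervals assume. They held no clumping of UMIs in single cells, so this share cannot show how the intervals fare on the real cells. All 9 members are named. Pathway genes are named with at least 50 UMIs in the class and a call, at most 8 per class, and for each member the gene with the highest Pearson r, of which that for Igf1 is not reported here. Genes that lead groups of cells, other markers and values given for sub-groups were chosen after their values were seen. The members and lists were chosen with earlier results of these data known. Positions are those of GENCODE M21 and sequences those of RefSeq on GRCm38.p6, and all 9 of 9 members had a promoter entry. Python 3.11.15, numpy 2.4.6, scipy 1.17.1, pandas 2.3.3, scanpy 1.11.5 and matplotlib 3.10.9 were used.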

Additional observations from a re-analysis of the deposited data

Results flagged for a closer look

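In 3 binding proteins the Doxo to Veh ratio passed 1.5-fold in opposite directions in different classes, and these differences between classes were not tested. How many of all genes do the same was not counted, so this number has no background to be set against. Igfbp5 had log2 ratios of -1.02 in CAR-like cells and -0.97 in chondrocyte-like cells and 1.42 in endothelial-like cells. Igfbp6 had -2.55 in chondrocyte-like and -0.99 in osteoblast-like cells and 3.60 in endothelial-like cells. Igfbp3 had -2.21 in bone and cartilage fibroblast-like and -1.32 in endothelial-like cells and 2.62 in osteoblast-like cells, the last on 2 and 8 UMIs. Several of these values have most of their UMIs in 3 cells or fewer. For the endothelial-like value of Igfbp6 this holds in the Doxo library. For the endothelial-like value of Igfbp5 (132 of 164 Veh and 202 of 227 Doxo UMIs) and the osteoblast-like value of Igfbp3 it holds in both libraries. For the osteoblast-like value of Igfbp6 it holds in Veh (30 of 55 UMIs). For the bone and cartilage fibroblast-like value of Igfbp3 it holds in Veh (36 of 60 UMIs). For the chondrocyte-like values it holds in both libraries, with 315 of 503 Veh and 126 of 168 Doxo UMIs of Igfbp5 and 219 of 370 Veh and 22 of 41 Doxo UMIs of Igfbp6.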

How the results depend on the processing

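No paired analysis was possible because each condition has 1 library. Of the alternatives tried, those without the 3 cells with most UMIs of a member, without the 5% of cells with most UMIs and without endothelial-like cells rich in stromal markers were chosen after seeing the data. In CAR-like cells Igfbp4 was past 1.5-fold and higher in all 17 alternatives (1.04 to 1.67), and Igfbp5 lower in all 17 and past 1.5-fold in 16 (-1.17 to -0.45). The alternatives with a minimum of 50 UMIs and with no minimum changed which members were tested, and could not move a ratio. They are included wherever alternatives of a ratio are counted. Such counts of alternatives past 1.5-fold used the ratio alone, without its interval. The count of members past 1.5-fold in CAR-like cells was 2, and 4 in cells chosen by 2 of 4 markers. In bone and cartilage fibroblast-like cells it was 3, but 1 at a resolution of 0.2 and 5 without the cells called by Scrublet. In the arteriolar and endosteal class it was 4, and 1 with cells thinned to 1500 UMIs. In osteoblast-like cells it was 2. It became 4 at a resolution of 0.2, with 20 principal components, with a stricter cell filter (1000 genes or more, mitochondrial UMIs up to 5%), or without the cells called by Scrublet, 1 with a minimum of 50 UMIs or without the 3 highest cells, and 0 with thinned cells or without the 5% deepest. In chondrocyte-like cells it was 3. It became 1 with members among the variable genes, at a resolution of 0.2, without cells called by Scrublet or with thinned cells. It became 6 with every cell weighing the same, where a call needed no interval. In endothelial-like cells it was 8. It became 5 under the stricter cell filter, with every cell weighing the same or without the 5% deepest cells, 3 without the 3 highest cells, and 2 with thinned cells. A called member changed direction in 6 of 322 recomputed ratios of called members: Igfbp2 in the arteriolar and endosteal class without the 3 highest cells (-0.28), Igfbp3 in osteoblast-like cells with 20 principal components (-0.019), Igfbp5 in chondrocyte-like cells without the cells called by Scrublet (0.080), Igfbp6 in endothelial-like cells with 20 principal components (-0.14), and Igfbp5 in endothelial-like cells without the 5% deepest cells (-0.92) and without cells rich in stromal markers (-1.15). With every cell weighing the same, the class with the highest level was kept in 15 of 18 combinations of member and library. Where fewer UMIs remain, as with thinned cells, intervals are wider by construction. Counts with every cell weighing the same used the 1.5-fold limit alone, without an interval, which is a looser rule. For the other changes the cause was not tested.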
